A study of Mus musculus with 2 samples.

Results

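The 33 complement genes described here are the components, regulators and receptors of the complement system whose symbols were fixed as a list: 9 recognition molecules and proteases of the classical and lectin pathways, 7 genes of C3 and its convertases, 6 of the terminal pathway, 8 regulators and 3 receptors of the complement fragments C3a and C5a. All 33 were found among the 24377 genes with a count in the liver of mice after acetaminophen (APAP) intoxication. Both libraries came from male C57BL/6 mice (C57BL/6J in the study's methods) aged 9 to 11 weeks, which were fasted for 10 h, injected i.p. with 300 mg/kg APAP and killed 30 h later. The AZD7986 group had in addition received 4 oral doses of 5 mg/kg AZD7986, an inhibitor of the lysosomal protease cathepsin C, at -12 h, 0 h, 12 h and 24 h relative to APAP, and the vehicle group 4 doses of its vehicle. RNA of 8 mice per group was pooled, so each group is 1 library, no p-value between groups can be given, and mice without APAP were not analysed here.

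The table held 7657855 counts for the vehicle pool and 6700838 for the AZD7986 pool, counted at the 3′ ends of transcripts after removal of duplicates by molecular identifiers. Levels are given as CPM, the count relative to the library total. They were not divided by gene length, since each transcript is counted at its end. A ratio is the AZD7986 pool over the vehicle pool after scaling by median-of-ratios size factors, followed in brackets by its exact 95% interval. That interval covers counting error only and none of the difference between mice. The 7 hepatocyte markers found, of 8 listed, held 5.54% of counts with vehicle and 5.60% with AZD7986, led by albumin (Alb) at 34874 and 32496 CPM.

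Complement is a cascade of plasma proteins that marks surfaces for clearance, releases the inflammatory fragments C3a and C5a and assembles a pore, the membrane attack complex, in target membranes. Recognition molecules bind their ligands and activate serine proteases, these build the convertases that cleave C3 and C5, and regulators stop the cascade on host cells. Hepatocytes make most of the circulating components, whereas the fragment receptors are best known from myeloid cells and properdin is made mainly by leukocytes.

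Promoter windows show where the members described below start, and RefSeq (GRCm38.p6) gave a window of 250 bases before to 50 bases after the start for 26 of the 33 genes, not for C2, C4a, C4b, Cfb, Cfi, Clu and Masp1. A set of 3 short motifs of liver and inflammatory transcription factors was searched on both strands: the C/EBP motif TTGCNNAA, the NF-kB motif GGANNTTCC and the HNF4 motif CAAAGTCC. C/EBP was found for 6 of the 26 genes (C1ra, C1rl, C1s1, C3, C5ar2 and C9). It was in 6 of their 29 windows, against 10.8% of all 32851 windows. NF-kB was found for 2 genes, C1s1 and Mbl2 (3 of 29 windows, against 4.26% of all windows), and HNF4 for 0 (1.42%). The 2 windows of C1s1 overlap and hold the same NF-kB match, which is thus counted in both. The first 3 windows below belong to abundant liver components with a match, and the last 3 to genes with the most different ratios, Colec11 on the higher and the C5a receptor genes on the lower side. Capitals mark the matches, which do not overlap in these windows, and a match shows only that these letters are present. A further window of C5ar2, chr7:16242282-16242581, holds no match and is not printed.
C3, chr17:57228087-57228386 (minus strand): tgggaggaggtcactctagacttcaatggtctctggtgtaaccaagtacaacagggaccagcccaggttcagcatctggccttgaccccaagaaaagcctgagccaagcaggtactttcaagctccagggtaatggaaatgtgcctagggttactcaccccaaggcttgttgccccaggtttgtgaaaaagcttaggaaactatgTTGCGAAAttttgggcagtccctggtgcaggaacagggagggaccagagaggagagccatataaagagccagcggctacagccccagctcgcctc
C9, chr15:6445096-6445395 (plus strand): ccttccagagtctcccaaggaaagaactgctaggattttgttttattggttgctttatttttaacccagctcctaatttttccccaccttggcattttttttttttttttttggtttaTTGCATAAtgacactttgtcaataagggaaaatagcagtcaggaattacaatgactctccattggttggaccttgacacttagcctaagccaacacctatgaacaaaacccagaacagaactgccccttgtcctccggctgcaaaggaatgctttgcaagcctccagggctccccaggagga
Mbl2, chr19:30232678-30232977 (plus strand): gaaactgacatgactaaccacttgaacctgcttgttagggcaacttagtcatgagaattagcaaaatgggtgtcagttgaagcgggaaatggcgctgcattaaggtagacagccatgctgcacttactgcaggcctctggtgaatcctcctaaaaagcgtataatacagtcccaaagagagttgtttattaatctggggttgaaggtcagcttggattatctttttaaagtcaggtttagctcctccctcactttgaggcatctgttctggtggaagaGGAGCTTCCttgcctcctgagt
Colec11, chr12:28623281-28623580 (minus strand): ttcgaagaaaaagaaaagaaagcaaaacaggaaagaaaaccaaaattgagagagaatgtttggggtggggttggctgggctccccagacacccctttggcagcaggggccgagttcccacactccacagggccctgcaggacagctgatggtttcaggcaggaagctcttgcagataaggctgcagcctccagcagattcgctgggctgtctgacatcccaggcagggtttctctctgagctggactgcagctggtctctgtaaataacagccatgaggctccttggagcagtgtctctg
C5ar1, chr7:16259289-16259588 (minus strand): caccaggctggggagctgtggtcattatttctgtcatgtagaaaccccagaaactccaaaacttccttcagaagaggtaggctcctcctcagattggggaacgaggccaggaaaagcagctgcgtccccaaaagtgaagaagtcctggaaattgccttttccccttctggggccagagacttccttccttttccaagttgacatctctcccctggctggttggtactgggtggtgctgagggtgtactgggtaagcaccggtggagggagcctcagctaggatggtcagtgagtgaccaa
C5ar2, chr7:16244105-16244404 (minus strand): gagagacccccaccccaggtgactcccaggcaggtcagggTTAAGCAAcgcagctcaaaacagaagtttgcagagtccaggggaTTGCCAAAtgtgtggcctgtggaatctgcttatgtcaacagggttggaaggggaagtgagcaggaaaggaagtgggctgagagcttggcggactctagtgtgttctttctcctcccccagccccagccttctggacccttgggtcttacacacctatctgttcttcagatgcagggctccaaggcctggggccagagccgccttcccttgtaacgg

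Complement transcripts together made up 1.11% of the counts of the vehicle pool and 1.10% of the AZD7986 pool. C3, the component on which all pathways converge, was the most counted member, with 25517 and 23630 counts, rank 47 and 42 among all genes. It held 30.0% [29.7, 30.4] of the complement counts with vehicle and 32.0% [31.6, 32.3] with AZD7986 (Clopper-Pearson intervals). Vtn and Clu, which encode the terminal-pathway regulators vitronectin and clusterin, followed. At the other end, Cd46, a membrane cofactor of complement factor I that is largely restricted to testis in mice, had 4 and 0 counts, and a count of 0 allows up to 3 counts or 0.448 CPM. Cfd, the factor D or adipsin gene of fat tissue, had 1 and 3 counts. These 2 genes were not followed further.

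**Figure D1:**
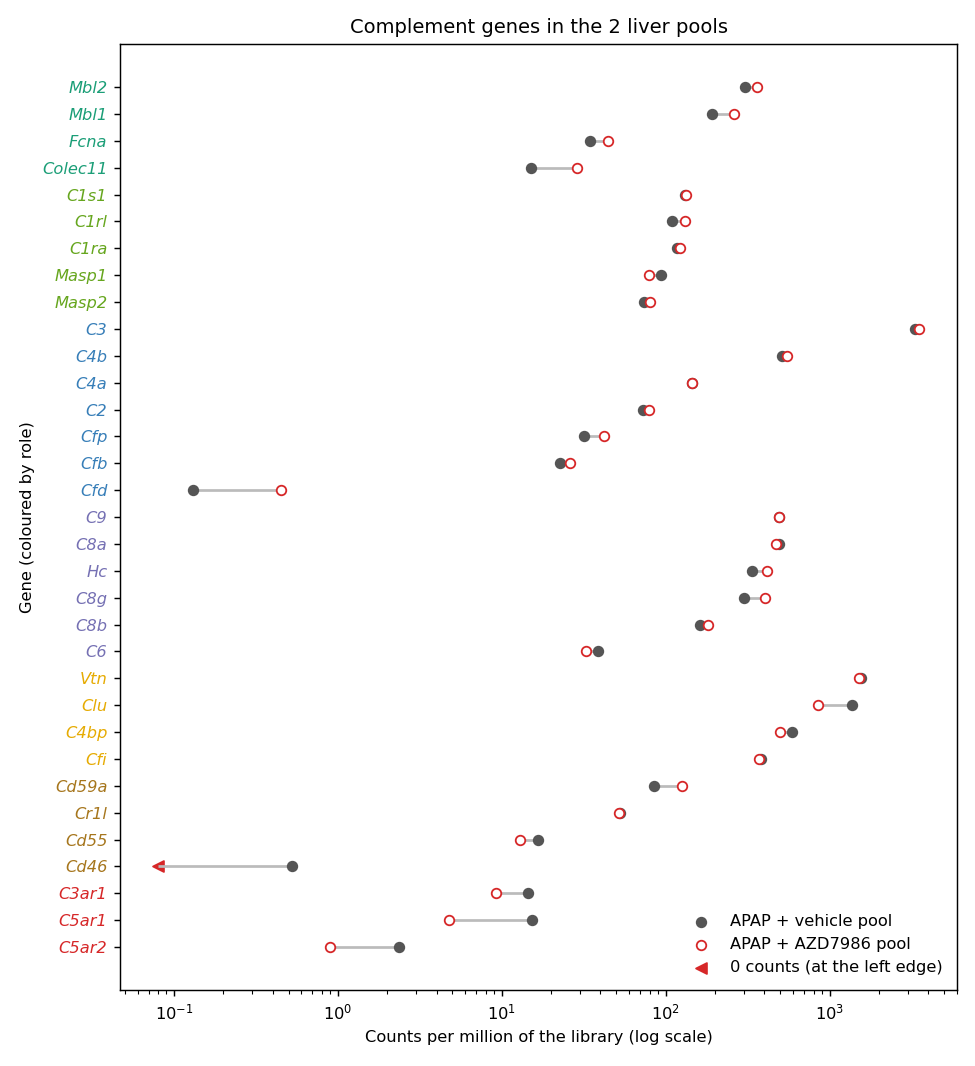
Level of each of the 33 complement genes in the vehicle pool (filled grey) and in the AZD7986 pool (open red), in CPM on a log scale, with gene names coloured by role and 1 library per group. C3 is highest at 3332 and 3526 CPM, the receptor genes are at 15.3 CPM or less, and Cd46 has 0 counts in the AZD7986 pool.

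Of the 31 members with 20 or more counts over both pools, 23 had a ratio above 1 and 8 below 1. Scaling by library total gave 18 above and 13 below, since Vtn, C9, C8a, Cfi and Cr1l lie within a few percent of equality. The median log2 ratio was 0.14, against -0.02 over all 13523 genes with that count. Complement genes are counted deeply, and the 21 members with 1000 or more counts over both pools had a median of 0.16, the same as the 0.16 of all 1830 genes with such counts. Intervals lay above 1 for 16 members and below 1 for 5, against 17.9% and 15.1% of all genes. Among such deeply counted genes they lay above 1 for 13 of 21 members and below 1 for 3, against 54.1% and 18.9% of all genes. As a whole the list thus sat where abundant transcripts sat, and the differences lie among its members.

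Ratios of 0.5 or less were found for 2 of the 31 members, C5ar1 and C5ar2 (3.73% of all genes), and a ratio of 2 or more for 1, Colec11 (2.22% of all genes). With a lesser fold of 1.5 and an interval that excludes 1, 2 members were lower, C5ar1 and Clu (7.51% of all genes), and 2 were higher, Colec11 and Cd59a (6.26%). Under library-total scaling Cd59a, at 1.49, is no longer among them. Among the 21 deeply counted members, Clu alone was 1.5-fold lower by this rule (1.91% of the 1830 genes) and Cd59a alone higher (9.45%), while 0 had a ratio of 0.5 or less (0.219%) or of 2 or more (1.15%). None of these counts sets the list apart from all genes.

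**Figure D2:**
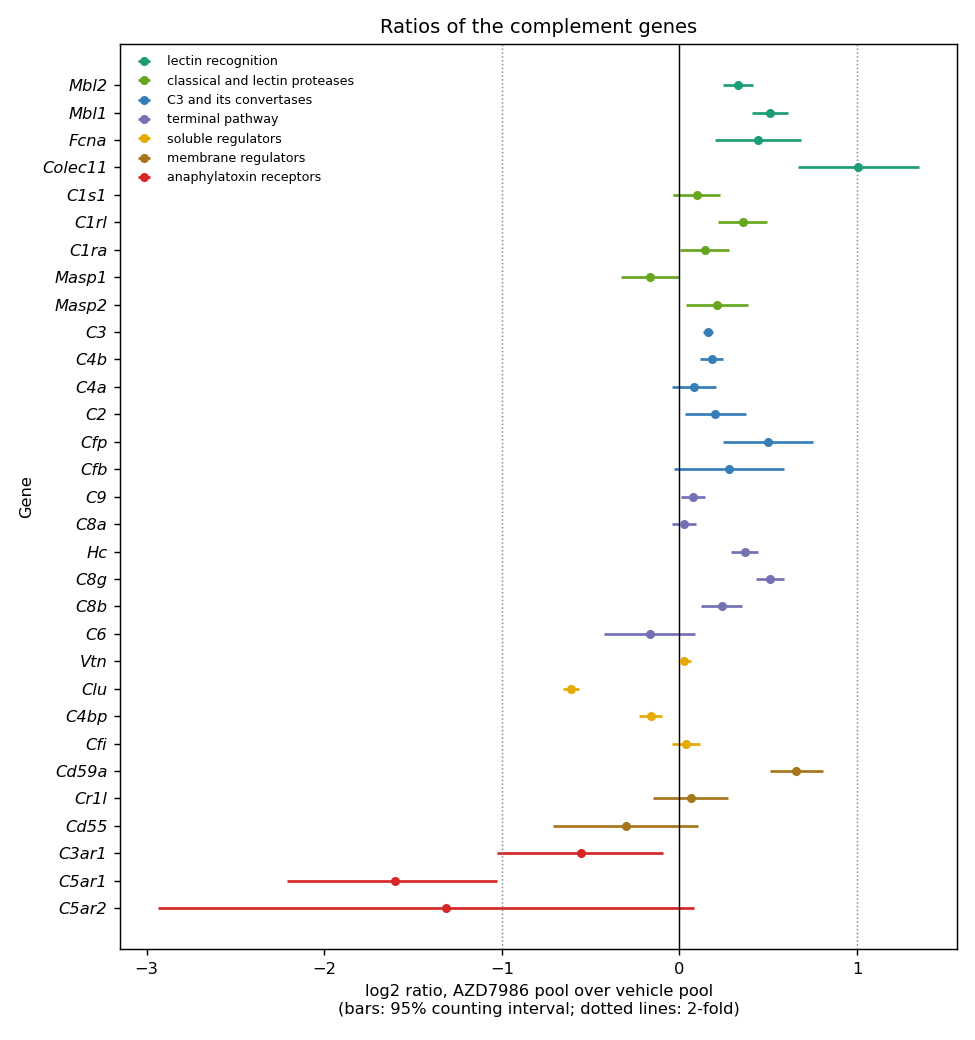
The log2 ratio of the AZD7986 pool over the vehicle pool for the 31 complement genes with 20 or more counts over both pools, ordered by role, with bars for the 95% counting interval (1 library per group). The 3 receptors and Clu lie on the left, the 4 lectin recognition genes on the right, with C9, C8a, Vtn, Cfi and Cr1l near 0 and on the other side of it under scaling by library total.

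The recognition molecules of the lectin pathway, which bind sugars on microbes and damaged cells, were all higher in the AZD7986 pool. Mbl2, a mannose-binding lectin made by hepatocytes, had 2326 counts with vehicle and 2421 with AZD7986, a ratio of 1.26 [1.19, 1.33]. Mbl1, the second mannose-binding lectin of mice, had 1477 and 1745 counts and a ratio of 1.43 [1.33, 1.53]. The Mbl1 to Mbl2 ratio within a library, which does not depend on scaling, went from 0.635 to 0.721, a 1.14-fold difference [1.04, 1.24]. Fcna, the ficolin A gene expressed by liver macrophages, had 263 and 296 counts (1.36 [1.15, 1.61]). Colec11, which encodes the collectin CL-K1, stood furthest from 1 in this group, with 116 and 193 counts and a ratio of 2.01 [1.59, 2.55]. Under library-total scaling Colec11 fell just short of 2-fold, and its interval stayed above 1. All 4 intervals lay above 1, against 17.9% of all genes with 20 or more counts over both pools. Among genes with 1000 or more counts, as Mbl1 and Mbl2 have, that share was 54.1%. The summed counts of the 4 lectin genes were 4182 and 4655. Colec11 was also listed among stellate cell markers, and the other 7 of these had summed counts of 2993 and 2193 (0.884 [0.837, 0.935]). Dcn, with 1610 and 1100, led that sum. The 3 markers above 1 were Ecm1 (1.19 [1.05, 1.36]), Lrat (1.18 [0.893, 1.57]) and Reln (1.30 [0.941, 1.80]). The 4 below were Dcn, Col1a1, Rgs5 and Des. Kupffer cell markers, 9 of 10 found and none at 0, summed to 4102 and 3196 counts (0.940 [0.898, 0.985]), 6 above 1 and 3 below. The part of these cell types in the Colec11 and Fcna values was not tested. In RNA of whole liver, fewer cells of a type and less RNA per cell cannot be told apart.

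The proteases that these molecules activate differed less. Masp1, whose transcripts encode the lectin-pathway proteases MASP-1 and MASP-3, had 716 counts with vehicle and 529 with AZD7986 (0.892 [0.795, 0.9991]). Masp2, whose protease cleaves C4 and C2, had 561 and 538 (1.16 [1.03, 1.31]). The interval of Masp1 reaches 1 under TMM scaling, and that of Masp2 includes 1 under library-total scaling (1.10 [0.972, 1.24]). Free of scaling, the Masp1 to Masp2 ratio went from 1.28 to 0.983, 0.770-fold [0.652, 0.910]. Set against its lectin, the Mbl1 to Masp1 ratio went from 2.06 to 3.30, a 1.60-fold difference [1.40, 1.83]. Among the C1 proteases of the classical pathway, C1ra had 894 and 818 counts (1.10 [1.003, 1.22], an interval that includes 1 under library-total scaling) and C1s1 1011 and 896 (1.07 [0.977, 1.17]). Both were close to equal in the pools. C1rl, a C1r-like protease gene, had 833 and 884 counts and a ratio of 1.28 [1.16, 1.41]. C1rl, C1ra and C1s1 lie side by side on chromosome 6, with gaps of 1.76 and 6.90 kb.

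C3 itself differed little between the pools, with a ratio of 1.12 [1.10, 1.14]. At its depth the interval excludes 1, also under library-total scaling (1.06 [1.04, 1.08]). Unscaled counts, which keep the difference in depth, are lower in the AZD7986 pool. C4b, which supplies the classical and lectin C3 convertase, had 3937 and 3701 counts (1.13 [1.08, 1.19]), and its partner C2 559 and 533 (1.15 [1.02, 1.30], or 1.09 [0.966, 1.23] under library-total scaling). C4a, the sex-limited protein gene and a paralog of C4b, had 1103 and 967 counts (1.06 [0.970, 1.15]). Neither the C4b to C3 ratio (1.02-fold [0.967, 1.07]) nor the C4a to C4b ratio (0.933-fold [0.845, 1.03]) differed beyond counting error. In the alternative pathway, Cfb, which encodes the protease subunit of its convertase, had 174 and 175 counts (1.21 [0.978, 1.51]). Properdin stabilizes that convertase, and its gene Cfp had 242 and 283 counts (1.41 [1.18, 1.68]). Cfp was the most different of this group, and its interval lay above 1 under each scaling to size factors or library total.

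Genes of the terminal pathway diverged within a single complex. C8 is built from 3 chains, the pore-forming alpha and beta chains encoded by C8a and C8b and the lipocalin-like gamma chain encoded by C8g. C8a had 3758 counts with vehicle and 3167 with AZD7986 (1.02 [0.970, 1.07]). C8b had 1235 and 1207 (1.18 [1.09, 1.28]). C8g had 2289 and 2700 (1.42 [1.35, 1.51]), the one C8 gene with more raw counts in the less deeply sequenced AZD7986 pool. The C8g to C8a ratio was 0.609 with vehicle and 0.853 with AZD7986, a 1.40-fold difference [1.30, 1.51], and C8b to C8a differed by 1.16-fold [1.06, 1.27]. C8a and C8b are neighbours on chromosome 4, 11.1 kb apart, while C8g lies on chromosome 2. Hc, the gene of C5, had 2587 and 2763 counts (1.29 [1.22, 1.36]), and relative to C3, its homolog, it was 1.15-fold higher [1.09, 1.22]. The pore-forming C9 had 3749 and 3276 counts, with a ratio of 1.05 [1.01, 1.11] that crossed to just below 1 with library-total scaling. C6, which joins C5b in the first step of pore assembly, had 297 and 219 counts (0.890 [0.744, 1.06]), and its difference was not detectable at this depth.

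Clu had the lowest ratio among the 21 deeply counted complement genes. Clusterin is a secreted chaperone that also binds the terminal complex and keeps it out of membranes. Its gene had 10538 counts with vehicle and 5722 with AZD7986, a ratio of 0.655 [0.634, 0.677], and its rank among all genes went from 91 to 123. It lies on chromosome 14 from 65968483 to 65981547 (mm10), with no other annotated gene overlapping it. Vtn, whose product has the same action on the terminal complex, had 11934 and 10080 counts and a ratio of 1.02 [0.993, 1.05]. The Clu to Vtn ratio within a library fell from 0.883 to 0.568, 0.643-fold [0.616, 0.670]. Clu went from 12.4% to 7.74% of all complement counts, while Vtn went from 14.1% to 13.6%. Clusterin is made by hepatocytes and by biliary epithelium among other cells. Cholangiocyte markers, all 6 found, had summed counts of 1427 and 368 (0.311 [0.277, 0.349]), of which Spp1, also a macrophage marker, supplied 1164 and 270. Of the 5 with enough counts, 4 were below 1: Spp1, Sox9 (211 and 74 counts, 0.423 [0.320, 0.554]), Epcam (20 and 5) and Krt19 (17 and 5). Krt7 had 14 counts in each library, and Cftr had 1 and 0. Their part in the Clu value was not tested.

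The other soluble regulators of the list differed less than Clu. C4bp, the C4b-binding protein that dissociates the classical convertase, had 4493 and 3328 counts (0.894 [0.855, 0.935]). Cfi, the protease that cuts C3b and C4b with such cofactors, had 2903 and 2470 (1.03 [0.973, 1.08]). The Cfi to C4bp ratio was 1.15-fold higher [1.07, 1.23] in the AZD7986 pool. On membranes, Cd59a, which blocks the insertion of C9, had 647 and 846 counts, a ratio of 1.58 [1.42, 1.75]. It was the highest ratio among the 21 deeply counted members, and 1.49 [1.35, 1.66] under library-total scaling. Cd55, the decay-accelerating factor, had 128 and 86 counts (0.811 [0.610, 1.07]), and Cr1l, the gene of the rodent C3b and C4b regulator Crry, had 401 and 347 (1.04 [0.902, 1.21]). Both intervals include 1. The Cd59a to Cd55 ratio went from 5.05 to 9.84, a 1.95-fold difference [1.44, 2.64].

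The receptors of the anaphylatoxins, the small inflammatory fragments, were the lowest group, with summed counts of 245 and 100 (0.493 [0.386, 0.624]). C5ar1, the main signalling receptor of C5a, had 117 counts with vehicle and 32 with AZD7986, or 15.3 and 4.78 CPM, a ratio of 0.330 [0.216, 0.492]. C5ar2, the second C5a receptor, which does not couple to G proteins, had 18 and 6 counts (0.402 [0.131, 1.06]), too few to show a difference. The C3a receptor gene C3ar1 had 110 and 62 counts (0.680 [0.490, 0.937]). C5ar1 and C3ar1 were counted about equally often in the vehicle pool (ratio 1.06) but not in the AZD7986 pool (0.516), a 0.485-fold difference [0.284, 0.822] that needs no scaling. Set against Hc, the precursor of its ligand, C5ar1 was 0.256-fold [0.167, 0.383], and C3ar1 against C3 was 0.609-fold [0.438, 0.839]. C5ar2 and C5ar1 lie next to each other on chromosome 7, 2.59 kb apart, C5ar1 from 16246743 to 16259540 (mm10, minus strand). Neutrophil markers, all 11 found, summed to 1012 counts with vehicle and 320 with AZD7986 (0.382 [0.335, 0.433]), and 0 of the 7 with enough counts had a ratio above 1. Intervals lay below 1 for 5 of these 7, against 15.1% of all genes with 20 or more counts. Most of the neutrophil marker counts came from S100a8 (472 and 145) and S100a9 (381 and 128). Of the defining neutrophil genes, Ly6g was at 0 and 2 counts, Camp at 1 and 0, Ngp at 3 and 1 and Cxcr2 at 10 and 6. Markers of monocytes and infiltrating macrophages, all 10 found and none at 0, summed to 4350 and 2309 counts (0.641 [0.609, 0.674]), 10 of 10 below 1. Intervals lay below 1 for 6 of the 10, against the same 15.1%, and those of Trem2, Gpnmb, Cx3cr1 and Itgam included 1. Lyz2 (2124 and 1419) and Spp1 (1164 and 270) supplied most of the summed counts of these markers. The part of these cells in the receptor values was not tested. Cfp and Fcna, genes of leukocytes and of liver macrophages, had ratios above 1. C5ar1 relative to Cfp was 0.234-fold [0.148, 0.364] and relative to Fcna 0.243-fold [0.154, 0.377]. Whether these differences reflect cell numbers was not tested.

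**Figure D3:**
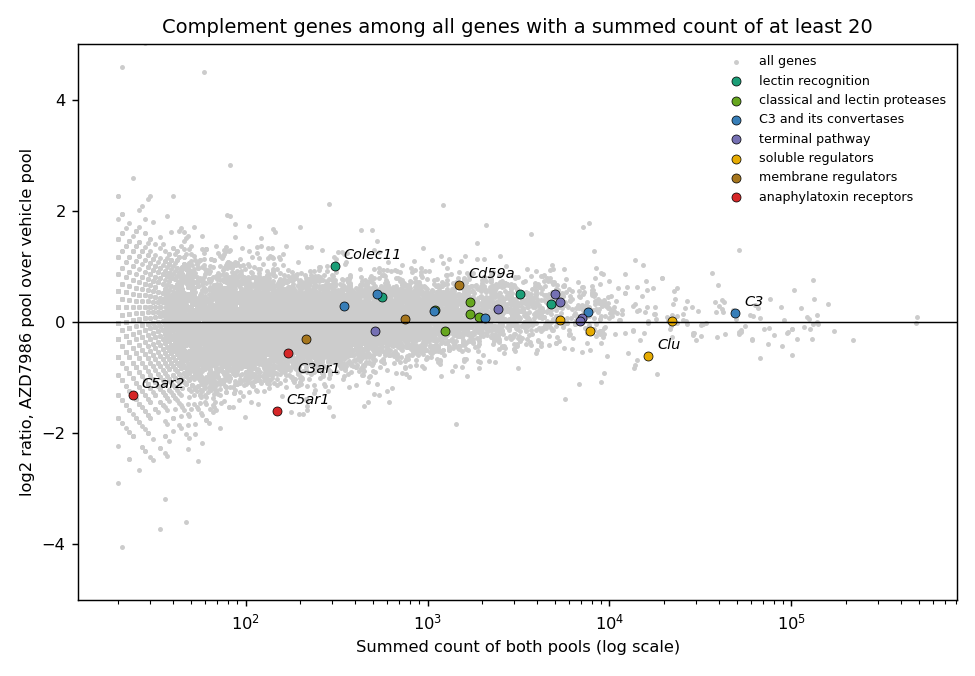
Log2 ratio of the AZD7986 pool over the vehicle pool against the summed count of both pools (log scale), for every gene with 20 or more counts (grey; 3 genes lie outside the axis) and the 31 complement genes (coloured by role). C5ar1 at -1.60 and Clu at -0.61 lie below most genes of similar summed count, and most components lie between 0 and 0.5.

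Within-library ratios of 18 pairs of members, chosen after the values were seen, do not depend on the scaling and are set out in the plot of paired ratios. Their intervals excluded 1 for 14 pairs, a count that depends on this choice and is not a share of all possible pairs. The 4 pairs that did not differ beyond counting error were C9 to C8a, C6 to C8a, C4b to C3 and C4a to C4b.

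**Figure D4:**
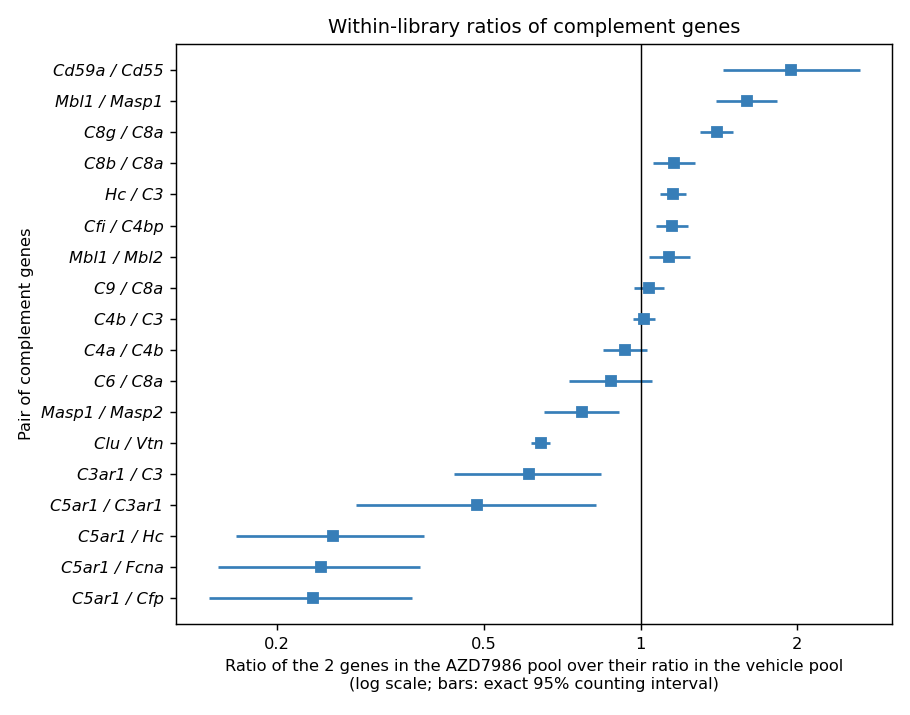
For 18 pairs of complement genes, the ratio of their counts in the AZD7986 pool divided by the same ratio in the vehicle pool (log scale), with exact 95% counting intervals. The pairs that hold C5ar1 lie between 0.234 and 0.485, and Cd59a to Cd55 is highest at 1.95.

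Of 28 further complement genes listed beside the 33, 24 were found and 21 had 20 or more counts. Their median log2 ratio was 0.00, and 1 of the 21 had a ratio of 0.5 or less (3.73% of all genes). This was Cd93, a membrane glycoprotein of endothelial and myeloid cells once described as a C1q receptor (407 and 136 counts, 0.403 [0.330, 0.491]). Intervals lay below 1 for 5 of these genes and above 1 for 5, against 15.1% and 17.9% of all genes with 20 or more counts. The 3 chains of C1q, the recognition molecule of the classical pathway made by macrophages, did not share a direction. C1qa had 533 and 549 counts (1.24 [1.10, 1.40]), C1qb 561 and 504 (1.08 [0.959, 1.23]) and C1qc 474 and 299 (0.761 [0.657, 0.882]). Itgb2, the common chain of the complement receptors CR3 and CR4, had 111 and 52 counts (0.565 [0.399, 0.793]), while their alpha chains Itgam (45 and 24 counts) and Itgax (29 and 17) were too sparse to show a difference. Vsig4, the complement receptor of Kupffer cells, was at 1.001 [0.845, 1.18]. Among the regulators, Serping1, the C1 inhibitor gene, was at 0.966 [0.923, 1.01]. Cpn1, the catalytic chain of carboxypeptidase N, which inactivates C3a and C5a in plasma, was at 1.30 [1.20, 1.40]. Cpb2, a second plasma carboxypeptidase that acts on C5a, was at 0.715 [0.679, 0.753].

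Another 2 sets of plasma protein genes made by the liver are given for comparison. The 25 coagulation genes had a median log2 ratio of 0.16, with 0 at 0.5 or less and 0 at 2 or more. The 22 acute phase genes with enough counts had a median of -0.06, with 2 at 0.5 or less and 0 at 2 or more. Of all genes with 20 or more counts, 3.73% were at 0.5 or less and 2.22% at 2 or more. Of those with 1000 or more counts the shares were 0.219% and 1.15%. The complement median of 0.14 lay near that of the coagulation genes, but the summed counts of the 2 lists differed. Coagulation genes summed to 212824 and 158912 counts (0.901 [0.895, 0.907]), or 2.78% and 2.37% of the libraries. The complement members held 1.11% and 1.10%, a ratio after scaling of 1.05 [1.04, 1.06]. No test of these differences is possible.

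Shared sequence limits several members. In the last 500 bases of their annotated transcripts, 28.3% of the 50-base words of C4a occur in C4b and 38.1% of those of C4b in C4a. For C1ra 19.1% occur in C1rb, for C1s1 22.9% in C1s2, and for Cr1l 20.04% in a pseudogene and a predicted gene. A same-strand gene model, Gm20547, overlaps Cfb and C2 and shares 64.2% and 28.8% of their words, and the Cfb and C2 counts are uncertain in that respect. For C5ar2 26.0% of words occur in transcripts of 298 other genes, which adds to the uncertainty of its 18 and 6 counts. The 3′ end of Cd46 is covered on the other strand by A330023F24Rik, and 50% of the end words of Masp2 by Tardbp. The strand setting of the counting was not stated. C5ar1, C3ar1, Clu, Colec11, Cd59a, C8g and C3 shared none of these words with another gene.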

How the data were processed

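Each library is 3′ mRNA sequencing (MACE) of liver RNA pooled at equal shares from 8 mice. The authors collapsed duplicate reads by their molecular identifiers, used cutadapt and poly(A) clipping before mapping to mm10, and deposited an HTSeq count for each gene. Aligner, annotation release, strand setting and versions were settings not given in the sources used here. The treatment text of the labels is the same for both libraries, so the groups come from the titles. The table's scaled columns were not used, nor were 6 columns of values that name neither sample. Entries without a symbol hold 3.70% and 3.71% of counts and were kept in all totals.

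Size factors (1.10 with vehicle, 0.910 with AZD7986) came from DESeq2 1.42.0 in R 4.3.3 over the whole table. Ratios, with exact 95% intervals of how the summed count splits between the pools, were computed in Python 3.11.15 with scipy 1.17.1, pandas 2.3.3 and numpy 2.4.6, and figures with matplotlib 3.10.9. Intervals of within-library ratios are exact conditional odds ratio intervals. No test between the groups was made, each being 1 library. The intervals were tested on simulated counts that held counting error only, so that test cannot show how far mice or pools differ. Identifiers of all 33 members were found in GENCODE M21, which gave positions and the transcripts whose last 500 bases were searched. Every member is named, with counts, ratio and interval where it has 20 or more counts, and of the further genes on fixed lists those that help to read the members. The members and lists were chosen with earlier results of these data known. Alternatives were TMM scaling (edgeR 4.0.16), library totals, no scaling, other minimum counts, 0.5 added to each count and a wider interval. Some genes and motifs are not reported here.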

Additional observations from a re-analysis of the deposited data

How the results depend on the processing

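With 1 library per group no replicate could be left out, and every interval covers counting error only. No paired analysis was possible because each group has 1 library. Scaling by TMM or adding 0.5 to each count left the ratios of all 31 members within their main intervals. TMM moved each log2 ratio by 0.0017, which brought the Masp1 interval to 1 and left 4 members with an interval below 1. Scaling by library total lowered each by 0.079, which turned C9 to -0.0020, gave 0 members at 2-fold or more, and left Colec11 as the 1 member at least 1.5-fold higher with an interval above 1, since Cd59a fell to 1.49. The intervals of C1ra, C2, C9 and Masp2 then included 1, which left 12 above 1, and that of Vtn lay below 1. Without scaling, which keeps the difference in depth, each log2 ratio fell by 0.27 and the median of the members was -0.13. Then 4 members were 1.5-fold lower with an interval below 1 and 1 was 1.5-fold higher with an interval above 1, 0 reached 2-fold, and intervals lay below 1 for 16 members and above 1 for 5. The log2 ratios of 13 members turned negative. For 7 of them the main interval had excluded 1: C3 (-0.11), C4b (-0.0892), C9 (-0.19), C8b (-0.0331), C1ra (-0.13), Masp2 (-0.0604) and C2 (-0.0687). The other 6 were Vtn, C8a, Cfi, C4a, C1s1 and Cr1l. With no minimum count 2 members were at 2-fold or more, since Cfd entered, and with a minimum of 100 there was 1 member at 0.5-fold or less, since C5ar2 left. A wider interval, of higher confidence level, lay below 1 for 3 members and above 1 for 12. Leaving out the 3 receptors, chosen after the data were seen, gave a median log2 ratio of 0.17. Colec11, Cd59a, C8g, Mbl1, Mbl2, Fcna, Cfp, Hc, C1rl and Cfb were the 10 members above 1 under each scaling. Depth limits C5ar2, Cd55, C6 and Cfb, whose intervals include 1.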

Other observations

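Transcription factor genes known from the control of complement and acute phase genes in liver were looked up after the complement values had been seen. Intervals lay below 1 for 5 of 11 such genes and above 1 for 2, against 15.1% and 17.9% of all genes. The lower ones are factors of the inflammatory response. Cebpb had 1072 counts with vehicle and 561 with AZD7986 (0.632 [0.569, 0.700]), and Cebpd 142 and 77 (0.654 [0.489, 0.870]). Stat3, which transmits interleukin-6 signals, had 567 and 294 counts (0.626 [0.542, 0.722]). The NF-kB subunit genes Rela (275 and 147 counts, 0.645 [0.524, 0.791]) and Nfkb1 (116 and 66 counts, 0.687 [0.4997, 0.937]) were lower as well. Factors of hepatocyte identity and metabolism lay higher or near 1. Cebpa had 1429 and 1502 counts (1.27 [1.18, 1.36]) and Nr1h3, the LXR alpha gene, 740 and 837 (1.37 [1.24, 1.51]). Both, like Cebpb, have 1000 or more counts over both pools. Of all genes with such counts, 54.1% had an interval above 1 and 18.9% below 1. Hnf4a was at 0.937 [0.868, 1.01], the bile acid receptor gene Nr1h4 at 1.04 [0.916, 1.18] and Ppara at 0.992 [0.693, 1.42]. The interferon regulatory factor gene Irf1 stands outside this group of hepatocyte factors. It was not lower in the AZD7986 pool, with 183 and 161 counts (1.06 [0.854, 1.32]).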
